A study of Arabidopsis thaliana with 33 samples.

Results

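Loss of DCL2 was examined in Arabidopsis plants that already lacked EIN5 and DCL4, by setting the triple mutant ein5-1 dcl4-2 dcl2-1 against the double mutant ein5-1 dcl4-2. The genes described are all those that reached at least 1 FPKM (fragments scaled to transcript length and library size) in either genotype, which held for 19484 of the 33557 genes listed. At this limit AT5G66631 was just inside, with a higher value of 1.0005 FPKM, and AT3G53403 was just outside, with 0.99983 FPKM. The series holds 33 poly(A) RNA libraries from aerial tissue of untreated 20-day-old plants, 3 libraries for each of 11 genotypes, raised on MS medium for 6 days, then in soil for 14 days, and all labelled as harvested at 15:00. Both genotypes compared carry the alleles ein5-1 and dcl4-2, and the triple mutant also carries dcl2-1, so each mutated gene is represented by 1 allele. Beside them stand ein5-1 dcl2-1, the single mutants dcl4-2, dcl2-1 and ein5-1, the wild type Col-0, and a matching set with the allele ski2-2 in place of ein5-1 (the triple ski2-2 dcl4-2 dcl2-1, the double mutants ski2-2 dcl4-2 and with dcl2-1, and the single mutant).

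EIN5 is a cytoplasmic exoribonuclease that degrades uncapped mRNA, and the helicase SKI2 delivers RNA to the cytoplasmic exosome. The Dicer-like proteins DCL4 and DCL2 make small interfering RNAs (siRNAs) from double-stranded RNA, and the 22-nt siRNAs in the title of the series are the product of DCL2. Plants that lack cytoplasmic decay and DCL4 together are known to turn endogenous mRNAs into DCL2-dependent siRNAs and to be stunted, and the comparison asks which transcripts move when DCL2 is removed from such plants.

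The deposited table holds FPKM pooled over each genotype's libraries, which leaves the values without an SD or an n, and the read depth behind it is unknown. FPKM is a relative measure, and in bulk tissue fewer cells of a type and less RNA per cell cannot be told apart. Rises and falls in the triple mutant are called only where the authors' deposited table gave a q of at most 0.05 and at least a 2-fold ratio for this pair. A gene that met the q but had a smaller ratio is given as under 2-fold, and one that missed the q as such; both are not called. The lowest q, 0.000201, is shared by 9043 of the 19484 genes in the authors' deposited table and ranks none of them. Differences are of log2(FPKM + 1), triple minus double, and they understate the change of genes with low values. Of the 19484 genes, 308 were listed at 0 in the triple mutant and 63 in the double mutant. The ribosomal protein gene AT3G08520 was listed at 20147 FPKM in the triple mutant and at 0 in the double mutant, so a listed 0 can be a failed estimate and no fold is given against one.

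Removing DCL2 moved a large share of the transcriptome. By the q and ratio of the authors' deposited table, 3202 genes rose (16.4% of those tested) and 3729 fell (19.1%), 35.6% in all. By size alone, with a difference of at least 1 and no test, 2816 were higher and 3744 lower in the triple mutant, 33.7% in all, and 551 of these did not pass the q. The large changes were mostly falls: leaving out genes listed at 0 in either genotype, 794 genes fell at least 8-fold and 313 rose as much, and 78 fell and 2 rose at least 64-fold. Across all genes the median difference was -0.08, with -1.69 at the lowest 10% and 1.3 at the highest 10%. After quantile normalization the median was 0.09, and with the authors' q kept the split turned to 3811 higher and 3224 lower genes. The calls were spread evenly over the 5 nuclear chromosomes, with at least 15.8% of the genes of each risen and 18.4% to 19.8% fallen.

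**Figure D1:**
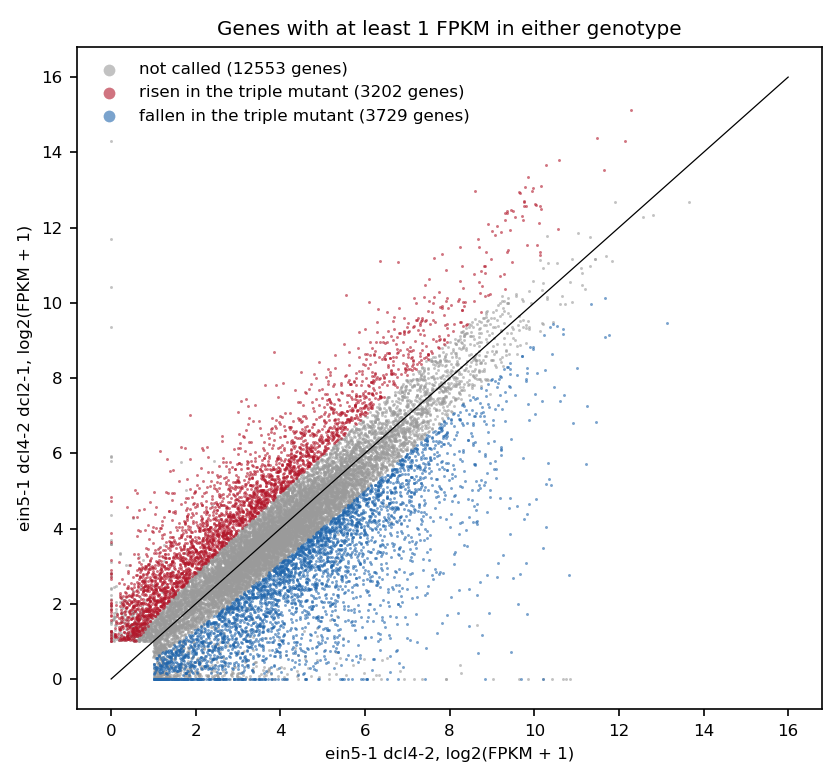
Each point is 1 of the 19484 genes, with log2(FPKM + 1) in the triple mutant ein5-1 dcl4-2 dcl2-1 on the vertical axis and in the double mutant ein5-1 dcl4-2 on the horizontal axis; the line marks equal levels. The 3202 risen genes lie above the line and the 3729 fallen genes below it, and points on the axes are genes listed at 0.

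In level, the triple mutant differed in few genes from dcl2-1 and ein5-1 dcl2-1. By size alone, 304 genes (1.65% of those compared) differed at least 2-fold between the triple mutant and dcl2-1, 387 (2.09%) between it and ein5-1 dcl2-1, and 1530 (8.25%) between it and Col-0. For the double mutant against Col-0 the count was 6720 genes (34.5%). These comparisons share libraries with the main one and are given side by side only. The 3202 risen genes held 49.7% of the summed FPKM in the triple mutant and 12.95% in the double mutant, beside 51.5% in Col-0. The 3729 fallen genes held 5.50% in the triple mutant and 31.2% in the double mutant, beside 6.44% in Col-0. These shares describe genes chosen by the same contrast.

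The mutated genes were read first. DCL2 itself (AT3G03300) had 2.35 FPKM in the triple mutant, against 4.89 FPKM in the double mutant, and fell, where the authors' deposited table gave a log2 ratio of -1.06. It is the same order as in dcl2-1 (1.23 FPKM) and Col-0 (5.10 FPKM). The log2 ratio, on which the call rests, was just past the limit, and the call was lost under both scalings tried. The log2(FPKM + 1) difference, which does not set the call, was -0.81 as deposited. It was -0.66 after quantile normalization and -0.75 after median-of-ratios scaling. EIN5 was at 8.43 and 11.2 FPKM, DCL4 at 2.98 and 3.80 FPKM and SKI2 at 5.50 and 4.12 FPKM in the triple and the double mutant, all with a q under 0.05 in the authors' deposited table but under 2-fold. ARF4, an auxin response factor silenced by DCL4-dependent trans-acting siRNAs (tasiRNAs), was at 32.1 FPKM in the triple and 30.5 FPKM in the double mutant, beside 11.96 FPKM in Col-0, so its high level, shared with dcl4-2 (31.5 FPKM), was seen in both.

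Among genes known as sources of DCL2-dependent siRNAs, the nitrate reductase gene NIA1 fell and its paralog met the q but was under 2-fold. NIA1 was at 18.8 FPKM in the triple mutant, against 113 FPKM in the double mutant, a difference of -2.52, and stood at 20.9 FPKM in Col-0 and 21.4 FPKM in ein5-1. NIA2, the major nitrate reductase gene, was at 139.8 FPKM in the triple and 172 FPKM in the double mutant, beside 145 FPKM in ein5-1 dcl2-1, 399 FPKM in ein5-1 and 98.0 FPKM in dcl2-1. SMXL4, a phloem development gene, rose to 1.69 FPKM in the triple mutant, against 0.565 FPKM in the double mutant, and its paralog SMXL5 was at 4.41 and 2.63 FPKM, which met the q but was under 2-fold. Of the 4 source genes 1 rose (25%, beside 16.4% of all genes), 1 fell (25%, beside 19.1%) and 2 were not called.

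Of 19 genes of the small RNA machinery 4 rose (21.1%) and 2 fell (10.5%), beside 16.4% and 19.1% of all genes, with a median difference of -0.03 beside -0.08 over all genes. AGO4, the Argonaute of RNA-directed DNA methylation, was at 13.7 FPKM in the triple mutant and 5.59 FPKM in the double mutant and rose, as did SDN1, DCL3 and the DCL1 partner HYL1. AGO2, an antiviral Argonaute, fell to 6.48 FPKM in the triple mutant, against 19.3 FPKM in the double mutant, and AGO3 fell to 0.218 FPKM, against 2.89 FPKM. RDR6 and SGS3, which make the double-stranded substrate of DCL2 and DCL4, were at 6.97 and 10.2 FPKM in the triple mutant and at 3.49 and 7.10 FPKM in the double mutant, and both met the q of the authors' deposited table, RDR6 just missing the 2-fold limit. None of 20 RNA decay factors met both limits, several meeting the q of the authors' deposited table alone, and their differences ran from -0.62 (UPF3) to 0.72 (LSM1B). In the tasiRNA list 2 of 14 members rose and 2 fell, 14.3% each way, which is near the share over all genes. TAS1C, a tasiRNA precursor, was at 45.1 FPKM in the triple and 14.3 FPKM in the double mutant and rose together with ARF3. TAS4, the precursor of siRNAs against anthocyanin regulators, fell to 0.872 FPKM in the triple mutant, against 56.1 FPKM in the double mutant, and was listed at 0 in Col-0.

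Of the 25 lists, heat shock genes had the lowest median. Of 24 members 22 fell and none rose, beside 19.1% of all genes, and the median difference was -5.98. The summed level of the 24 members was 84.8 FPKM in the triple mutant and 9192 FPKM in the double mutant, beside 113 FPKM in Col-0. The count, median and sums include members listed at 0 in the triple mutant, and without these members 17 of 18 fell. Small heat shock proteins, chaperones that hold unfolded proteins, led the list. HSP17.6II was at 0.630 FPKM in the triple mutant, against 698 FPKM in the double mutant, a difference of -8.74. HSP17.6B was at 5.86 against 812 FPKM and HSP18.2 at 10.135 against 1183 FPKM in the same order. HSP17.6A, HSP17.6C and HSP22 were listed at 0 in the triple mutant and at 1179, 827 and 456 FPKM in the double mutant. In all other genotypes HSP17.6II lay between 0.225 FPKM (dcl4-2) and 2.57 FPKM (ski2-2), so the double mutant was the single genotype with a high level. The 2 members outside the call were HSP17.4, listed at 0 in the triple and 1646 FPKM in the double mutant, and HSP26.5, at 0.169 and 113 FPKM, with q values of 0.180 and 0.353 in the authors' deposited table. Small heat shock genes resemble each other, so reads may have been split between copies and single values are uncertain.

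The regulators and large chaperones of the heat response fell too, and some were also high in ein5-1. HSFA2, the heat-induced transcription factor, was at 1.27 FPKM in the triple mutant, against 40.6 FPKM in the double mutant, and HSP101, the disaggregase, at 4.45 against 80.5 FPKM. HSP70-4 was at 4.29 FPKM in the triple and 348 FPKM in the double mutant, but also at 113 FPKM in ein5-1, beside 12.3 FPKM in Col-0. HSP90.1 was likewise at 3.86 FPKM in the triple mutant, 177 FPKM in the double mutant and 41.6 FPKM in ein5-1. MBF1C, DREB2A, HSFB1, HSFB2A and HSFA7A also fell, by 3.97, 3.26, 3.70, 2.65 and 2.09. In the endoplasmic reticulum stress list, by contrast, 4 of 13 members fell (30.8%, beside 19.1% of all genes) and none rose, with a median of -0.62. The transcription factor gene BZIP60 was at 35.7 FPKM in the triple and 141 FPKM in the double mutant, and BIP3, BIP1 and BZIP28 fell by 1.33, 1.06 and 0.98, the last pair losing the call under quantile normalization and median-of-ratios scaling.

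The heat shock element, to which heat shock factors bind, was looked for as GAANNTTC in the 250 bases before each annotated gene start. It was present in 7 of 24 promoters of the list (29.2%), beside 9.5% of 26686 promoters read. No match was found before HSP17.6II, HSP17.6B, HSP18.2, HSP70-4, HSP90.1 or HSP101, which all fell more than HSFA7A. The called genes with 2 matches, HSFA2 and HSFA7A, are printed to show where the element lies in members that fell together, with the matches in capitals (RefSeq TAIR10.1, written along the gene's strand).
HSFA2, chr2:11135374-11135623, plus strand: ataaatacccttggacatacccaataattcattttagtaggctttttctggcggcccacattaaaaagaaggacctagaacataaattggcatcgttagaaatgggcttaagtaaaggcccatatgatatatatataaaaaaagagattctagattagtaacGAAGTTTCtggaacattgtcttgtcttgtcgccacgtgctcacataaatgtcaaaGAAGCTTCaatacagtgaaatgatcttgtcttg
HSFA7A, chr3:19264891-19265140, plus strand: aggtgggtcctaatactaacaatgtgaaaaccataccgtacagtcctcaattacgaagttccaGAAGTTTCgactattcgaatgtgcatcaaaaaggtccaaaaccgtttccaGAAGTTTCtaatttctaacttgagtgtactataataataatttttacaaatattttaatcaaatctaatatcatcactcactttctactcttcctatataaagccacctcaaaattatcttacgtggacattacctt
The second match of HSFA2 lies closer to the gene start than either match of HSFA7A. A match describes these letters only.

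Of 35 abscisic acid (ABA) and drought genes 27 fell (77.1%, beside 19.1% of all genes) and 1 rose (2.9%, beside 16.4%), with a median of -3.51. ABA is the hormone of water deficit, and genes of its synthesis, breakdown and response fell; receptors and the kinases below them are not in the list. NCED3, the rate-limiting step of ABA synthesis, was at 1.95 FPKM in the triple mutant, against 47.4 FPKM in the double mutant, and the degrading enzyme gene CYP707A1 at 2.64 against 8.77 FPKM. Of the clade A phosphatases that restrain the response, HAI1 was at 0.964 against 150.1 FPKM, HAI2 at 0.703 against 32.3 FPKM, HAB1 at 8.73 against 110.0 FPKM and ABI1 at 30.1 against 135 FPKM, triple mutant first in each pair. The bZIP factors ABF2 and ABF3 fell by 2.15 and 2.82, ABF4 met the q but was under 2-fold, at 16.8 and 30.6 FPKM, and the NAC factors RD26, NAC019 and NAC055 fell by 3.57, 4.24 and 4.37. Of the fallen regulators named here, the differences ran from -2.13 (ABI1) to -6.27 (HAI1). ABI5 also fell, by 0.80, at levels of 0.716 and 1.99 FPKM.

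Effector genes of drought tolerance gave the largest values of the group. LTP4, a lipid transfer protein, was at 2.29 FPKM in the triple mutant, against 912 FPKM in the double mutant, and LTP3 at 8.84 against 613 FPKM. LEA4-5, a late embryogenesis abundant protein, was at 0.782 against 172 FPKM, the dehydrin gene RAB18 at 39.7 against 546 FPKM and RD29B at 0.430 against 50.7 FPKM. LEA7 was at 0.111 and 307 FPKM but was not called, its q being 0.352 per the authors' deposited table. Members known from the cold response were divided. KIN1, LTI30 and COR47 fell, by 3.70, 3.97 and 1.12. COR15A, COR15B and KIN2 were at 268, 275 and 2282 FPKM in the triple mutant and at 377, 73.9 and 2758 FPKM in the double mutant, and COR15B, a chloroplast stromal protein, was the member that rose. COR15A and KIN2 were under 2-fold. These 3 genes were also high in dcl2-1 (275, 355 and 3293 FPKM) and lower in Col-0 (101, 18.23 and 305 FPKM). Over the list the median difference of the triple mutant was 0.09 from Col-0 and 0.07 from dcl2-1.

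The ABA response element was read as its core ACGTG on either strand, in the same promoter windows. It was present in 19 of 35 promoters of the list (54.3%), in 31.5% of fallen genes, in 42.3% of the 366 read promoters of genes that fell at least 32-fold (genes listed at 0 included), in 22.2% of risen genes and in 23.1% of all promoters. It was also present in 77.8% of morning clock and 63.6% of evening clock promoters. The shares were 42.9% for flavonoid, 37.5% for heat shock and 27.3% for photosynthesis promoters. The core is also part of the G-box, so these counts do not separate the motifs. The 3 called members with at least 4 matches and at least 5 FPKM in a compared genotype are printed, with the matches in capitals (RefSeq TAIR10.1, along the gene's strand).
RD29B, chr5:21236771-21237020, plus strand: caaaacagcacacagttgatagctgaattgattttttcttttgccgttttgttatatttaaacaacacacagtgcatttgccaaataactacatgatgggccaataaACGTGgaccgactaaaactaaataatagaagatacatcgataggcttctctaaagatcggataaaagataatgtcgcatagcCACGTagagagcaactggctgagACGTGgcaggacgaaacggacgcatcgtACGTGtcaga
LEA4-5, chr5:2090431-2090680, minus strand: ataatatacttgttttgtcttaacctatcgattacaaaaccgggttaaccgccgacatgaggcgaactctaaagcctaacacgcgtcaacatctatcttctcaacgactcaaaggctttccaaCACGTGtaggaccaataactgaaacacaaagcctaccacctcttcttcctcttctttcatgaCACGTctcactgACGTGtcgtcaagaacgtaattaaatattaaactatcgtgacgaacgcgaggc
HAI2, chr1:2282829-2283078, minus strand: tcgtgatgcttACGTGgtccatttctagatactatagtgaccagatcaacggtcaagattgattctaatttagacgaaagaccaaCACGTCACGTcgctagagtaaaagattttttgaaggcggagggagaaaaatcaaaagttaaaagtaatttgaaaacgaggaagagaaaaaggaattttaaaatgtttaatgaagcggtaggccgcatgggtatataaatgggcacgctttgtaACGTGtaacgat
In RD29B most matches lie in the part of the window nearest the gene. In LEA4-5 a pair overlaps near the middle of the window and the others lie nearer the gene. In HAI2 a pair of matches is adjacent.

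Immune genes of the salicylic acid list fell in 17 of 22 members (77.3%, beside 19.1% of all genes), none rose, and the median was -1.91. PR1, the pathogenesis-related marker, was at 185 FPKM in the triple mutant, against 1658 FPKM in the double mutant, and PR2, a glucanase, at 130.3 against 1039 FPKM. FMO1, needed for systemic resistance, fell to 0.106 FPKM, against 22.3 FPKM, and the camalexin genes PAD3 and CYP71A13 fell by 3.50 and 3.67. The synthesis genes ICS1, EDS5 and PBS3 fell by 1.69, 2.51 and 3.34, and the receptor gene NPR1 was at 20.1 FPKM in the triple and 20.2 FPKM in the double mutant. In the triple mutant several of these genes stayed above Col-0, PR1 at 185 beside 14.1 FPKM, as they did in dcl2-1 (202 FPKM). The list's median difference of dcl2-1 from Col-0 was 0.72, and without genes that differ 2-fold between these genotypes 10 of 13 members fell.

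Jasmonate genes fell in 12 of 19 members (63.2%, beside 19.1% of all genes) and 1 rose (5.3%, beside 16.4%), with a median of -1.16. VSP1 and VSP2, vegetative storage proteins, were at 93.3 and 144 FPKM in the triple mutant, against 481 and 606 FPKM in the double mutant, and CORI3, a cystine lyase, at 167 against 1554 FPKM. The repressor gene JAZ1 was at 17.7 against 89.1 FPKM and the transcription factor gene MYC2 at 40.9 against 109.5 FPKM. The plant defensin gene PDF1.2, a marker of the joint jasmonate and ethylene branch, went the other way, at 152 FPKM in the triple mutant against 8.36 FPKM in the double mutant. PDF1.2c rose too, by 4.50, whereas PDF1.2b, at 53.9 and 2.12 FPKM, was not called (the authors' deposited table gives q as 0.360). These defensin copies are near-identical and share reads. Of 18 ethylene genes 4 fell (ACS2, ACS6, ACO4 and HCHIB) and ACO1 rose, which is 22.2% and 5.6% beside 19.1% and 16.4% of all genes, while the receptors ETR1, ETR2, ERS1, ERS2 and EIN4 and the regulators EIN2, EIN3, EIL1 and CTR1 were not called, with differences from -0.56 to 0.84.

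Of 17 senescence genes 16 fell (94.1%, beside 19.1% of all genes), and the median was -2.89. SWEET15, a sugar exporter, was at 0.618 FPKM in the triple mutant, against 404 FPKM in the double mutant, and SAG21, a late embryogenesis protein of leaf ageing, at 51.3 against 2378 FPKM. The NAC factors ORE1 and NAP, which start leaf ageing, fell by 3.75 and 3.36. Genes of chlorophyll breakdown fell as well, NYE2 by 3.68, NYE1 by 2.89, PPH by 1.95, PAO by 1.72 and NYC1 by 1.03. The late marker SAG12 was at 0.0621 and 2.57 FPKM and was the member not called, having missed the q. The list's median was -0.05 for the triple mutant less Col-0 and 2.64 for the double mutant less Col-0.

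Photosynthesis genes rose without exception among the 33 measured, beside 16.4% of all genes, with a median of 2.90. Their summed level was 239344 FPKM in the triple mutant and 33652 FPKM in the double mutant, beside 280830 FPKM in Col-0. Of the antenna proteins, LHCB2.3 was at 2213 FPKM in the triple mutant, against 80.6 FPKM in the double mutant, and LHCB1.4 at 8004 against 388 FPKM. The photosystem subunit genes PSAD1, PSAF, PSBO1 and PSBP1 rose by 2.90, 3.09, 2.34 and 2.93. In carbon fixation, the small Rubisco subunit gene RBCS3B was at 10486 against 920.5 FPKM, Rubisco activase (RCA) at 4008 against 1516 FPKM and the carbonic anhydrase gene CA1 at 2181.94 against 109 FPKM. FBA5, a fructose-bisphosphate aldolase, was at 414 FPKM in the triple and 13.4 FPKM in the double mutant, where Col-0 had 789.9 FPKM. LHCB and RBCS genes are families of like sequence, and how reads were divided among copies is uncertain.

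Set beside Col-0, some antenna genes of the triple mutant were as high or higher, while the LHCB2 genes and the carbon fixation genes named here were lower. LHCB1.3 was at 35732 FPKM in the triple mutant and 32892 FPKM in Col-0, and LHCB1.4 at 8004 and 3615 FPKM. LHCB2.3 was at 2213 and 3600.4 FPKM in the same order. RCA was at 4008 FPKM in the triple mutant and 9832 FPKM in Col-0, and RBCS2B at 2022 and 7939 FPKM. In dcl2-1 RCA and RBCS2B were at 3191 and 3060.1 FPKM, so both genes were also below Col-0 in dcl2-1. PORB, which reduces protochlorophyllide, was at 1178 FPKM in the triple mutant, 45.8 FPKM in the double mutant, 1575 FPKM in dcl2-1 and 295 FPKM in Col-0.

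Of 23 cell division genes 21 rose (91.3%, beside 16.4% of all genes) and none fell, with a median of 1.6. The mitotic cyclin gene CYCB1;2 was at 13.9 FPKM in the triple mutant, against 1.61 FPKM in the double mutant, KNOLLE, the cytokinesis syntaxin, at 42.1 against 6.79 FPKM and the kinase gene CDKB2;1 at 17.83 against 3.39 FPKM. Replication genes rose as well, MCM7 by 1.81 and PCNA1 by 1.93. In the list of cell expansion and water channels 9 of 17 rose (52.9%) and 2 fell (11.8%), while 7 of the 17 were lower in the triple mutant. The expansin genes EXPA8 and EXPA5, whose proteins loosen cell walls, were at 128 and 102 FPKM in the triple mutant, against 2.64 and 10.5 FPKM in the double mutant. The aquaporin genes PIP2;2 and PIP1;1 fell, by 1.18 and 1.08, and PIP1;3 rose by 1.27. Of 12 translation genes 2 rose (16.7%, near the share over all genes), RPS6A by 1.15 and RPL28A by 1.03, the second not past 2-fold under quantile normalization (0.92). Most changes here were under 2-fold: 11 of the 12 were higher in the triple mutant, with a median of 0.81 beside -0.08 over all genes. Aliphatic glucosinolate genes rose in 6 of 7 members (85.7%, beside 16.4% of all genes). The chain elongation gene MAM1 was at 499 against 118 FPKM and its regulator gene MYB29 at 42.3 against 9.59 FPKM.

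Of 20 flavonoid and anthocyanin genes 17 fell (85%, beside 19.1% of all genes), and the median was -4.62. The regulator PAP2 was at 0.350 FPKM in the triple mutant, against 111 FPKM in the double mutant, and PAP1 at 8.98 against 276 FPKM. In pathway order, the enzyme gene CHS was at 113 against 2834 FPKM, F3H at 15.6 against 1239 FPKM, DFR at 34.6 against 1347 FPKM and LDOX at 38.5 against 1307 FPKM. FLS1, at the flavonol branch, was at 10.9 and 37.0 FPKM, below Col-0 (87.2 FPKM) in both. The triple mutant also lay below Col-0 here: the list's median was -1.14 for the triple mutant less Col-0 and -2.01 for dcl2-1 less Col-0. Without genes that differ 2-fold between dcl2-1 and Col-0, 6 members were left, of which 3 fell.

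Nutrient genes fell in part: 90.9% of the sulfur limitation genes and 51.9% of the nitrogen genes, beside 19.1% of all genes. Sulfur limitation genes fell in 10 of 11 members, with LSU1 at 19.9 FPKM in the triple mutant, against 906 FPKM in the double mutant, SDI1 at 4.53 against 178 FPKM and the sulfate transporter gene SULTR1;2 at 0.729 against 18.3 FPKM. The sulfate reduction gene APR1 was at 117 and 147 FPKM and under 2-fold. Of 27 nitrogen genes 14 fell and none rose. The nitrite reductase gene NIR1 was at 159 against 920.3 FPKM, the asparagine synthetase gene ASN2 at 43.5 against 468 FPKM and the phloem nitrate transporter gene NRT1.7 at 47.2 against 529.9 FPKM. The leaf plastid enzymes GLN2 and GLU1 were at 1067 and 215 FPKM in the triple mutant and at 625 and 115 FPKM in the double mutant, meeting the q but under 2-fold.

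Targets of miRNAs moved in both directions. Of 38 members 10 rose and 11 fell, beside 16.4% and 19.1% of all genes, with a median of -0.02. Of the NF-Y subunit genes, NFYA2, NFYA3, NFYA5, NFYA8 and NFYA10 fell, NFYA10 to 1.59 FPKM in the triple mutant, against 13.1 FPKM in the double mutant, while NFYA1 was just under 2-fold, at 14.9 and 29.2 FPKM. Of the leaf growth and phase change genes, TCP4, TCP24, GRF1, GRF2, GRF3, SPL3, SPL9 and SPL15 rose, SPL9 to 12.1 FPKM, against 1.82 FPKM, and TCP4 to 39.4 FPKM, against 10.6 FPKM. TCP2, TCP3 and TCP10 were not called, and of the auxin response factor genes ARF6 rose by 1.38 and ARF10 fell by 1.35. PHO2, a phosphate response gene, was at 30.8 against 128 FPKM and fell. Without genes that differ 2-fold between dcl2-1 and Col-0, 7 of 32 members fell.

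The clock state differed between the genotypes compared, although all were labelled with the same hour. CCA1 and LHY, transcription factors that peak at dawn, were at 9.34 and 3.57 FPKM in the triple mutant, against 69.3 and 148 FPKM in the double mutant, and both fell. RVE8 and RVE1, of the same family, fell by 3.74 and 2.21. PRR5, a later repressor, was at 18.3 FPKM in the triple and 11.9 FPKM in the double mutant, and ELF4, of the evening complex, at 47.8 and 81.6 FPKM, both meeting the q but under 2-fold. Of 9 morning genes 5 fell (55.6%, beside 19.1% of all genes) and 1 rose (11.1%, beside 16.4%). Of 11 evening genes 1 rose (CHE, at 198 against 23.0 FPKM) and 1 fell (BOA), 9.1% each way, which is below both shares. In Col-0 CCA1 was at 102 FPKM and PRR5 at 0.391 FPKM, and in dcl2-1 at 3.32 and 31.1 FPKM. The triple mutant thus had low dawn and high evening genes, as dcl2-1 had, and the double mutant had dawn genes nearer Col-0 and evening genes above it. Whether the clock state had a part in the other groups was not tested. The list medians of dcl2-1 less Col-0, outside the clock lists, ran from -2.01 (flavonoid genes) to 0.72 (salicylic acid and jasmonate genes), with -0.12 for heat shock, 0.02 for ABA and -0.37 for photosynthesis genes.

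**Figure D2:**
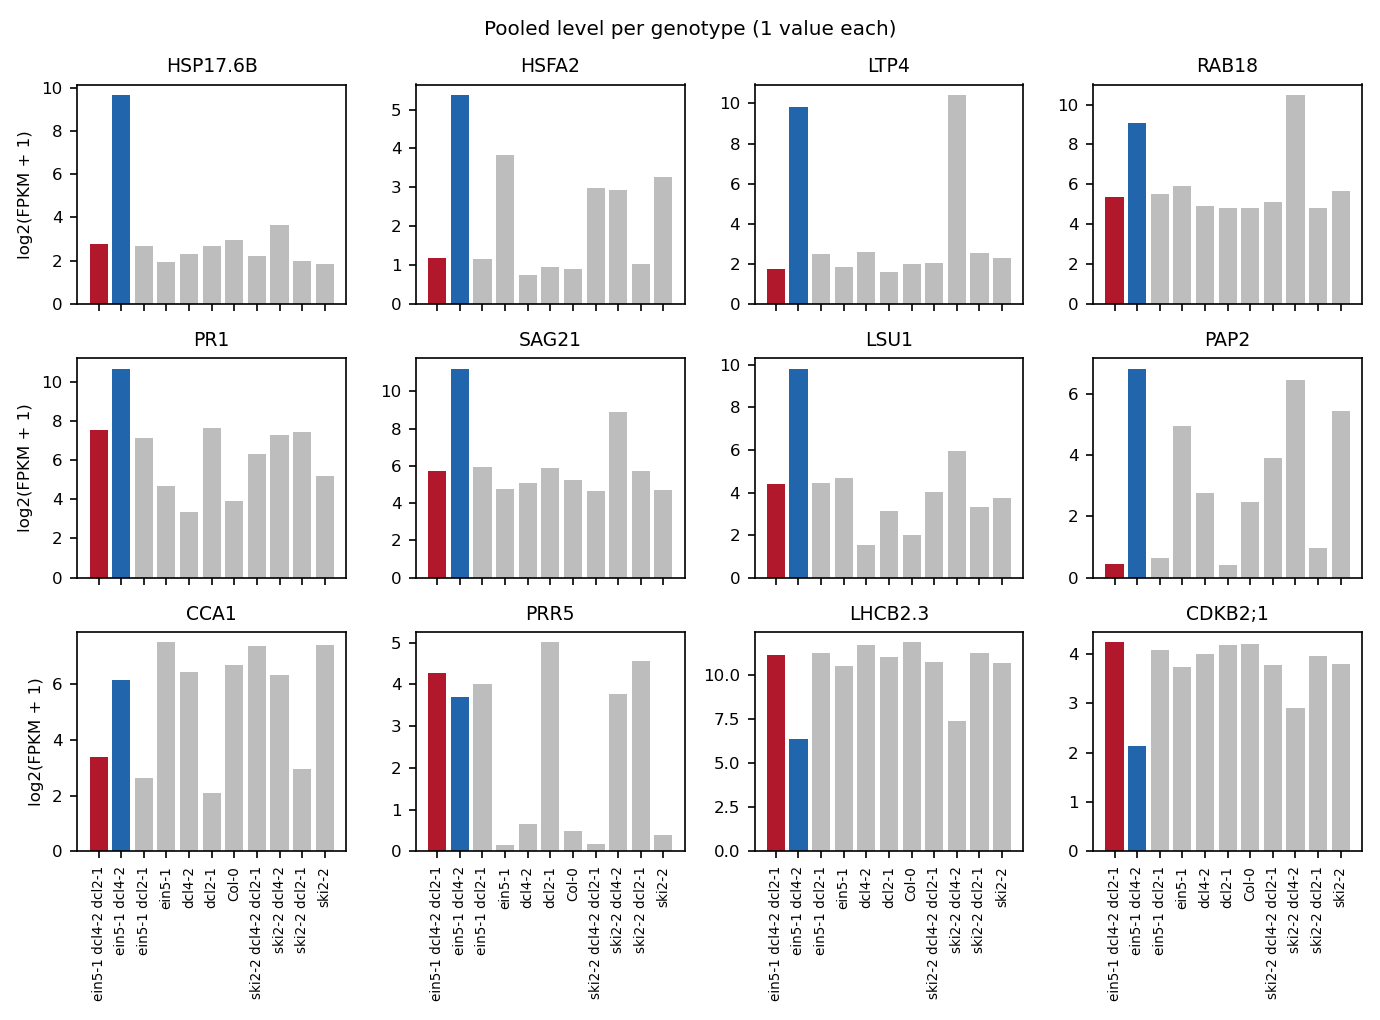
Pooled log2(FPKM + 1) of 12 genes in the 11 genotypes, 1 bar per genotype, with the triple mutant in red, the double mutant in blue and the others in grey. HSP17.6B is high in the double mutant alone, and LTP4 and RAB18 are high in ein5-1 dcl4-2 and ski2-2 dcl4-2. The clock genes CCA1 and PRR5 differ between genotypes, with ein5-1 dcl4-2 nearer Col-0 in CCA1 and nearer the triple mutant in PRR5.

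Markers of other organs also differed. Of 6 measured root genes 2 fell (33.3%, beside 19.1% of all genes) and all 6 were lower in the triple mutant, with a median of -1.01: PYK10, a root-abundant glucosidase, was at 73.2 FPKM in the triple and 254 FPKM in the double mutant, and RCI3 at 0.260 and 1.28 FPKM. The iron and sodium carrier genes IRT1 and HKT1 were at 0.104 and 1.97 FPKM in the triple mutant and at 1.09 and 3.88 FPKM in the double mutant and were not called, as were TIP2;3, at 0.0785 and 6.13 FPKM, and PER45, at 0.0327 and 1.22 FPKM, and the summed level of the root list was 75.8 and 268 FPKM. Of 5 measured floral genes 2 rose (40%, beside 16.4% of all genes). These were AG, at 2.27 against 0.905 FPKM, and FUL, at 4.26 against 1.39 FPKM. The other 3 were not called, and 2 of the 5, SEP3 and PI, were lower in the triple mutant. SEP3 met the q but was under 2-fold, and PI missed the q. Differences over the floral list ran from -0.73 to 1.17. The floral list summed to 16.6 FPKM in the triple and 12.9 FPKM in the double mutant. Their part in the results was not tested.

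Taken by size without regard to lists, the genes that fell most, among those with at least 5 FPKM and not listed at 0, held 4 small heat shock genes. The other 8 were LTP4, SWEET15, ELIP1, GPT2, NIT2, AT3G02480, AT4G23680 and AT2G30766. ELIP1, an early light-induced protein of the thylakoid, was at 5.79 FPKM in the triple mutant, against 1808 FPKM in the double mutant, and at 153 FPKM in Col-0. GPT2, a plastid glucose phosphate translocator, was at 2.37 against 485 FPKM, and NIT2, a nitrilase, at 1.65 against 351 FPKM. AT3G02480, annotated as a late embryogenesis abundant protein, was at 2.96 against 779 FPKM. The 12 largest rises were EXPA8, AT1G13650, FBA5, LHCB2.3, PORB, AT3G21460, PDF1.2c, AT1G31690, CIPK20, LHCB1.4, AT3G55646 and AT5G18600, with differences from 5.15 (EXPA8) to 4.33 (AT5G18600). AT3G21460, annotated as a glutaredoxin, was at 56.4 against 1.48 FPKM, and CIPK20, a calcineurin B-like interacting kinase gene, at 68.9 against 2.36 FPKM.

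The same loss was set beside that in the ski2-2 background, which shares no library with it. There the triple was ski2-2 dcl4-2 dcl2-1 and the double ski2-2 dcl4-2, and 2700 genes rose (13.7%) and 2813 fell (14.3%), 28% in all, by the q and ratio of the authors' deposited table. Genes risen in both comparisons numbered 1392, which is 43.5% of those risen with ein5-1 and 51.6% of those risen with ski2-2. Genes fallen in both numbered 1271, or 34.1% and 45.2%. Opposite calls were had by 373 genes. Of these, 147 rose with ein5-1 and fell with ski2-2, 4.6% of those risen with ein5-1. The other 226 did the reverse, 6.1% of those fallen with ein5-1. By size, ein5-1 dcl2-1 against ein5-1 had 1568 higher (8.41%) and 1545 lower (8.28%) genes. Of the higher genes 655 rose here (41.8%) and 198 fell (12.6%), and of the lower genes 736 fell (47.6%) and 94 rose (6.1%). For dcl2-1 against Col-0 there were 945 higher (5.09%) and 773 lower (4.16%) genes. Of these higher genes 295 rose here (31.2%) and 193 fell (20.4%), and of the lower genes 385 fell (49.8%) and 77 rose (10%). Over all genes tested in the ein5-1 comparison 16.4% rose and 19.1% fell.

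The gene groups differed between the backgrounds in size, and the medians of some lists also in sign. Evening clock genes had a median of 0.18 with ein5-1 and -2.16 with ski2-2, where 7 of 11 fell and 1 rose. Translation genes stood at 0.81 and -0.1, endoplasmic reticulum stress genes at -0.62 and 0.03 and morning clock genes at -0.98 and 0.01. Over all genes 14.3% fell and 13.7% rose with ski2-2. ABA genes had a median of -3.51 with ein5-1 and -2.62 with ski2-2, where 29 of 34 fell, and photosynthesis genes 2.90 and 1.77, where 31 of 33 rose. Heat shock genes had a median of -5.98 with ein5-1 and -0.91 with ski2-2, where 9 of 23 fell and 1 rose. Senescence genes stood at -2.89 and -0.53 and salicylic acid genes at -1.91 and -0.24 in the same order. In ein5-1 dcl2-1 less ein5-1 the ABA and heat shock medians were 0.12 and -0.69, and in dcl2-1 less Col-0 0.02 and -0.12. HSP18.2 shows the contrast in single values: it was at 10.135 FPKM in ein5-1 dcl4-2 dcl2-1, against 1183 FPKM in ein5-1 dcl4-2, and at 4.48 FPKM in ski2-2 dcl4-2 dcl2-1, against 5.69 FPKM in ski2-2 dcl4-2. LTP4 by comparison was at 2.29 against 912 FPKM with ein5-1 and at 3.17 against 1376 FPKM with ski2-2. The difference between the backgrounds was not tested, since the table holds no library values, and the clock states differ too: CCA1 was at 165 FPKM in ski2-2 dcl4-2 dcl2-1 and 80.0 FPKM in ski2-2 dcl4-2.

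**Figure D3:**
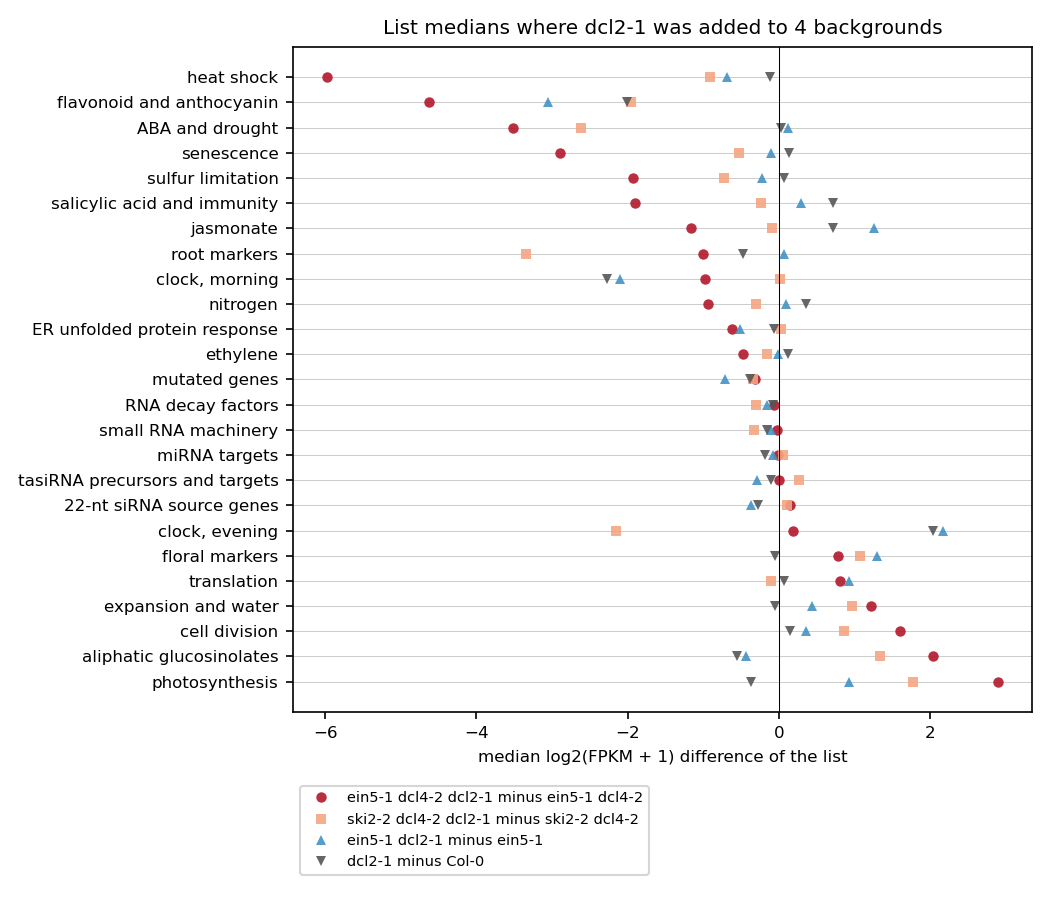
Median log2(FPKM + 1) difference of each of 25 gene lists where dcl2-1 was added to 4 backgrounds, with the list names down the page and 1 symbol per background. The heat shock median is -5.98 with ein5-1 dcl4-2 and between -0.91 and -0.12 in the other 3, while the ABA median is -3.51 and -2.62 in the backgrounds with dcl4-2 and 0.12 and 0.02 in those without.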

How the data were processed

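Poly(A) RNA-seq of aerial tissue was analysed from the deposited table. Per the submitters' processing notes the authors used TopHat2 2.1.1, TAIR10 and Cuffdiff, whose version is not given in the sources used here. FPKM values in the deposited table are fragment counts scaled to length and library size, combined by the authors for each genotype from its 3 libraries. The log2 ratios, p-values and q-values in the deposited table are the authors', for 8 comparisons. The labels number the libraries as replicates without saying how far they were separate, so the q may measure technical spread. Its zero-value ratios are stored as text and were read as infinite.

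From these, log2(FPKM + 1) differences were computed for genes with at least 1 FPKM in either genotype. A planned library test could not be run. Called genes had a q of at most 0.05 and a log2 ratio of at least 1 in size. Named genes were the 12 largest rises and falls with at least 5 FPKM and no listed 0, the mutated and siRNA source genes, the 4 largest called members of each list and 8 opposite calls; others illustrate a list and were chosen after their values were seen. Members and lists were chosen with earlier results of these data known. Symbols came from RefSeq TAIR10.1, which matched 32810 of 33557 identifiers; some symbols of the lists are common names. Promoters are the 250 bases before the annotated start. Alternatives were another pseudocount (0.1), minimum, scaling, fold or gene set. Python 3.11.15, pandas 2.3.3, numpy 2.4.6 and matplotlib 3.10.9 were used, and the code was tested on simulated data.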

Additional observations from a re-analysis of the deposited data

Results flagged for a closer look

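Loss of DCL2 moved 373 genes in opposite directions with ein5-1 and with ski2-2, as called from the authors' deposited table. Of the genes risen with ein5-1, 4.6% fell with ski2-2, beside 14.3% of all genes there. Of those fallen with ein5-1, 6.1% rose with ski2-2, beside 13.7% of all genes. Opposite calls thus lay below the shares over all genes, and 280 of them reached 5 FPKM. For the 8 with the greatest contrast between the log2(FPKM + 1) differences, each value is the difference with ein5-1 less that with ski2-2. None of these contrasts was tested, because each genotype has 1 pooled value.

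HSP17.8, a small heat shock gene, gave -8.69: it was at 1.24 FPKM in ein5-1 dcl4-2 dcl2-1, against 436 FPKM in ein5-1 dcl4-2, and at 9.83 FPKM in ski2-2 dcl4-2 dcl2-1, against 4.13 FPKM in ski2-2 dcl4-2. PORB gave 7.96, at 1178 against 45.8 FPKM with ein5-1 and 15.9 against 166 FPKM with ski2-2. The beta-amylase gene BAM5 gave -7.14, at 18.6 against 349 FPKM and 14.2 against 0.924 FPKM. ELIP2 gave -6.97, at 0.283 against 42.0 FPKM and 31.1 against 7.57 FPKM. AT2G27420, annotated as a cysteine proteinase, gave -6.41, with 8.49 FPKM as its highest value in the ein5-1 pair and 93.8 FPKM in the ski2-2 pair. AT1G65870, annotated as dirigent-like, gave -6.14, and AT3G62550 gave 6.06, at 148 against 36.5 FPKM and 1.45 against 40.2 FPKM. LEA3 gave -5.99, at 11.4 against 131 FPKM and 173 against 28.0 FPKM. PORB, ELIP2 and LEA3 also differed between dcl2-1 (1575, 0.617 and 6.20 FPKM) and Col-0 (295, 65.4 and 54.0 FPKM), and the part of the clock state was not tested.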

How the results depend on the processing

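No paired analysis was possible because the deposited table holds 1 pooled value per genotype, and leaving out a replicate could not be run for the same reason. With the q alone and no minimum ratio, 5997 genes rose and 7114 fell; at a 4-fold minimum 1161 rose and 1895 fell with the q, and 724 and 1490 by size. Leaving out genes 2-fold different between dcl2-1 and Col-0 also left fewer list members to test. Fallen miRNA targets went from 11 of 38 to 7 of 32. Fallen salicylic acid genes went from 17 of 22 to 10 of 13, and fallen flavonoid genes from 17 of 20 to 3 of 6. Quantile normalization reversed the balance of the calls, to 3811 risen and 3224 fallen with the q (54.2% risen, beside 46.2%) and to 3404 and 3198 by size; no named gene changed direction. Of 726 settings over 110 named genes, 719 kept direction and call. Many of these could not do otherwise, since a changed minimum or gene set reuses each gene's ratio and q. Only the pseudocount and the scalings could change a call. There 7 calls were lost: DCL2, BIP1 and BZIP28 under both scalings and RPL28A under quantile normalization. The gene lists without members listed at 0, an alternative chosen after seeing the data, left every count within 1.5 times. Depth is unknown, so no statement on low genes can be made more precise.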

Other observations

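Counts by RefSeq gene type were as follows: of 126 annotated pseudogenes 39 fell and 16 rose, of 106 non-coding RNAs 28 fell and 11 rose, and of 146 long non-coding RNAs 24 fell and 13 rose, beside 3596 and 3146 of 18902 protein-coding genes.

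A listed 0 beside a high value was seen in 9 genes that reached 1000 FPKM in the other genotype, and 1 of them, HSP17.6A, was called. AT2G40205, of the same ribosomal protein family as AT3G08520, was at 1369 FPKM in the triple mutant and listed at 0 in the double mutant, and the small nucleolar RNA gene AT1G19376 at 3287 FPKM and 0.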
